A study of Mus musculus with 15 samples.

Results

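The S100 proteins are small calcium-binding proteins, and 6 genes of the family were followed here in mouse embryonic stem (ES) cells with and without the enzymes that methylate DNA: S100g, S100a4, S100a1, S100a10, S100a11 and S100a6. They were taken as every probe whose gene name in the scanner files was 1 of these 6, which gave 6 expression probes of 41174, 1 per gene, and 20 promoter probes of 80567. The 6 genes are 6 of 12027 genes tested on the expression arrays. They were chosen by their RNA ratio between the lines, so that ratio is described and not tested. J1 is a wild-type ES cell line, and TKO is an ES cell line deficient in DNA methylation, known to lack Dnmt1, Dnmt3a and Dnmt3b. Both grew in medium with LIF and 15% serum, and were kept without feeder cells for 2 passages before harvest. Each genotype was 1 line, so how far lines of 1 genotype differ was not measured. RNA of both lines was hybridised together on 3 arrays with 2 dyes, and methylated DNA on 7 arrays of each of 2 promoter designs. In the second assay, methylated DNA immunoprecipitation (MeDIP), an antibody collects methylated fragments, here out of 2 ug of DNA. The 7 MeDIP replicates came from different passages, and the RNA from the same cultures.

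An S100 protein has a pair of EF-hands, loops that each hold a calcium ion, and most act as dimers. Binding of calcium exposes a surface through which the dimer takes hold of a partner protein. S100g, also called calbindin-D9k, is the exception: it is a monomer that buffers and carries calcium in the epithelium of intestine, kidney, uterus and placenta. S100a10 is unusual in that its loops no longer bind calcium; it forms a complex with annexin A2 at the plasma membrane. In mouse, most S100a genes lie in a cluster on chromosome 3, whereas S100g lies on the X chromosome.

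The sequences upstream of S100g, S100a4, S100a1 and S100a6 are shown because MeDIP reads methylated CG dinucleotides, and these promoters differ in how many they hold. Each is the 250 bases before the RefSeq gene start (GRCm38.p6), read 5′ to 3′ on the gene's strand, with every CG in capitals. They lie at chrX:162964600-162964849 (minus strand) for S100g, chr3:90603520-90603769 (plus strand) for S100a4, chr3:90514331-90514580 (minus strand) for S100a1 and chr3:90612644-90612893 (plus strand) for S100a6.
S100g: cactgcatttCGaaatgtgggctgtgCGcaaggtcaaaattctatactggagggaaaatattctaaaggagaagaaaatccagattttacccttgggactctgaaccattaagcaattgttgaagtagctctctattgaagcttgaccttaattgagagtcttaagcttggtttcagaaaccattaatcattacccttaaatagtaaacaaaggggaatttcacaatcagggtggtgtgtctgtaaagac
S100a4: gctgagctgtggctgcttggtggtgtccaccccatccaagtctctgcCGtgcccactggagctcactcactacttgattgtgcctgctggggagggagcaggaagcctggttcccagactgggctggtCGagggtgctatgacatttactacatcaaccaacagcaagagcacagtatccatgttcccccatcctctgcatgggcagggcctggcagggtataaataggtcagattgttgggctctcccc
S100a1: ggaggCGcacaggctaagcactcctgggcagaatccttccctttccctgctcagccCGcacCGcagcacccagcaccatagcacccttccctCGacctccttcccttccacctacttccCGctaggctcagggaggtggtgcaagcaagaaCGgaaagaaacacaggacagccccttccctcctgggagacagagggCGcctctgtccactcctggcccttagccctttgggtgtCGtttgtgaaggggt
S100a6: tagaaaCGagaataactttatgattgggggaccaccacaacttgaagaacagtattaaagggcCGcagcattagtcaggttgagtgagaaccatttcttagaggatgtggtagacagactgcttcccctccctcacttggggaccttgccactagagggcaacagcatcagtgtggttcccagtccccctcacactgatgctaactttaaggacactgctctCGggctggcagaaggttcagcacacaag
S100g and S100a4, the genes with the highest RNA ratios of the set, each hold 2 CG in this window. Of 32851 such RefSeq windows, 29.0% hold 2 or fewer, and the median is 6. S100a6 holds 3, S100a1 8 and S100a11 11. RefSeq windows matched 5 of the 6 genes by symbol, all but S100a10. The motif TATAAA was searched on both strands, where 12.4% of all windows hold it. S100a4 holds it, starting at -31 from the gene start. The windows of S100g, S100a1, S100a6 and S100a11 do not hold these letters. S100a1 lies head to head with S100a13, another family member, and their windows share 104 bases.

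The MeDIP ratio was taken as the channel labelled J1 over the channel labelled TKO. All arrays carried the lines in the same dyes, so dye and line cannot be told apart. The sign is therefore given by channel label only and is not read as a gain or loss of methylation. One reason is Asz1, a germ cell gene known to be methylated in wild-type ES cells, which was chosen after its value was seen: its promoter was at -0.65 ± 0.19 (SD, n = 7), on the labelled TKO side on every array. A promoter is a run of at least 3 probes of 1 transcript. It was called where its limma Benjamini-Hochberg adjusted p was under 0.05 and its mean log2 ratio at least 0.5 from 0, which 2.67% of 14474 promoters met.

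Of the 6 genes, 4 had a promoter on the MeDIP arrays under their own name, and none of the 4 reached the size a call needs. Without the size, 2 of the 4, S100a10 and S100a6, passed the adjusted p towards the labelled J1 side, as did 25.8% of all promoters, and none passed towards the labelled TKO side, where 31.1% did. At the S100a10 promoter (5 probes) the log2 ratio ran from -0.0034 through a median of 0.26 to 0.39 over the 7 arrays. Its mean was 0.22 ± 0.13 (SD, n = 7), with an SE of 0.044 and a limma adjusted p of 0.00156. It lay on the labelled J1 side on 6 of 7 arrays, and 96.1% of promoters had a lower mean. At S100a6, a regulator of cell proliferation and cytoskeleton, the ratio (3 probes) ran from 0.015 through 0.10 to 0.34, with a mean of 0.13 ± 0.11 (SE 0.039, adjusted p = 0.0171), and all 7 arrays lay on the labelled J1 side. With normexp background correction the S100a6 mean was 0.019 (adjusted p = 0.793) and with mode centring 0.099 (adjusted p = 0.0692), so that its pass of the threshold ended under both.

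The promoters of S100a11 and S100a1 sat near 0. S100a11, a partner of annexin A1, had a mean of 0.0088 ± 0.034 over its 6 probes (SD, n = 7, SE 0.026, adjusted p = 0.785), between -0.024 and 0.075. S100a1, best known from heart muscle where it acts on calcium release, had a mean of -0.015 ± 0.12 over 6 probes (SE 0.041, adjusted p = 0.761), between -0.16 and 0.18. These 6 probes all lay downstream of the S100a1 start, from 108 to 3004 bp. The probes upstream of it form the S100a13 promoter, which had a mean of 0.093 (limma adjusted p = 0.0268). With normexp the S100a11 mean was -0.0033, on the other side of 0. Arrays of the S100a11 and S100a1 promoters were spread over both sides of 0.

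**Figure D1:**
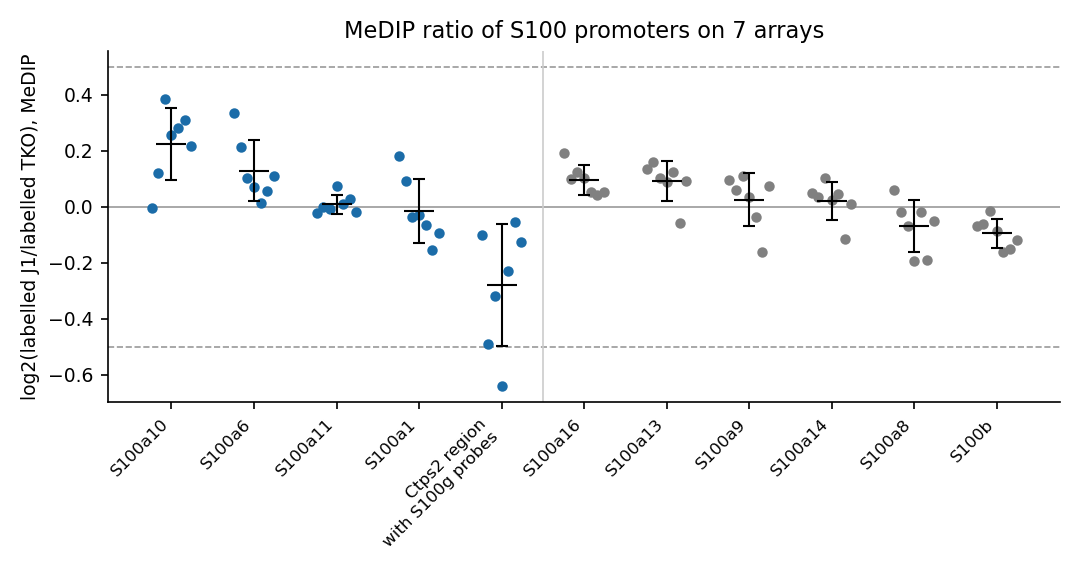
MeDIP log2 ratio of labelled J1 over labelled TKO for S100 promoters; each point is 1 of 7 arrays, the bar is the mean and the whiskers its SD, with the studied genes in blue, other S100 genes in grey and dashed lines at 0.5 from 0. S100a10 and S100a6 sit above 0 and no mean reaches a dashed line; the Ctps2 region that holds the S100g probes reaches down to -0.64 on 1 array.

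Single probes show where in a promoter the ratio lay. At S100a10 the highest probe mean was 0.41 ± 0.14 (SD, n = 7), at -23 bp from the gene start, and all 7 arrays were above 0 there. The other S100a10 probes, from -887 to 257 bp, had means between 0.073 and 0.30. At S100a6 the highest probe lay at 161 bp with 0.28 ± 0.11, also above 0 on all 7 arrays. The mean near 0 of S100a1 joined probes of opposite sign: 0.38 ± 0.15 at 314 bp, above 0 on all 7 arrays, and -0.18 ± 0.08 at 2297 bp, below 0 on all 7. At 2026 bp it was -0.41 ± 0.36, below 0 on 6 arrays. Upstream of S100a1, in probes filed under S100a13, the ratio was 0.27 ± 0.13 at -682 bp and -0.23 ± 0.09 at -1864 bp. S100a11 probes stayed between -0.15 and 0.15. These probe values were not tested singly.

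**Figure D2:**
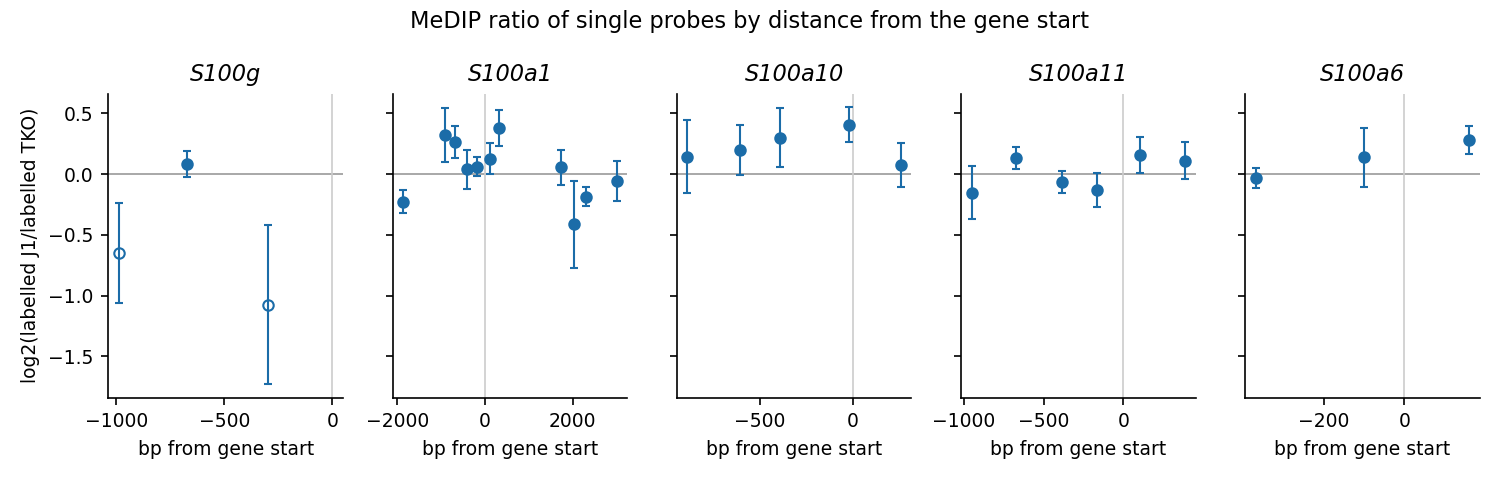
Mean MeDIP log2 ratio of labelled J1 over labelled TKO for single probes (vertical axis) against distance from the gene start in bp as the scanner files give it (horizontal axis, negative upstream); whiskers are the SD over 7 arrays, and open points are probes not well above background in both channels on every array. The 2 open S100g points at -987 and -298 bp lie far below the filled point at -671 bp, and S100a1 runs from above 0 near its start to below 0 past 2000 bp.

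No promoter probe is filed under S100g, but 3 probes filed under Ctps2, a nucleotide synthesis gene next to it on the X chromosome, carry a distance to the S100g start. At -298 bp the ratio ran from -2.04 through -0.87 to -0.28, with a mean of -1.07 ± 0.65 (SD, n = 7). At -987 bp the mean was -0.65 ± 0.41, and at -671 bp, between them, it was 0.085 ± 0.11. The probes at -298 and -987 bp were dim: each was well above background on 4 of 7 arrays in the labelled J1 channel and 6 of 7 in the labelled TKO channel, whereas the probe at -671 bp was so on all 7 in both. Together the 3 probes averaged -0.55 ± 0.35, below 0 on all 7 arrays. The other 2 probes of the same region averaged 0.12 ± 0.11. The region of 5 probes had a mean of -0.28 ± 0.22 (SE 0.066, limma adjusted p = 0.00459), short of the size a call needs. With only probes above background in both channels it turned to 0.11 (adjusted p = 0.00978), with normexp to 0.046 (adjusted p = 0.408), and with the median over probes it was -0.047 (adjusted p = 0.284). The region thus changed side when the dim probes were left out. S100a4 had no promoter probe under its name or within 2000 bp of its start and was not analysed here by MeDIP.

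Among the other S100 genes 6 promoters were tested and none was called, where 2.67% of all promoters were. Without the size, 25.8% of all promoters passed towards the labelled J1 side and 31.1% towards the labelled TKO side. At any size S100a16 (0.095 ± 0.053, adjusted p = 0.0149) and S100a13 (0.093 ± 0.071, adjusted p = 0.0268) passed towards the labelled J1 side, and S100b, the glial member, (-0.095 ± 0.052, adjusted p = 0.0175) towards the labelled TKO side (limma, n = 7). S100a14 (0.021 ± 0.068) and the inflammatory pair S100a8 (-0.068 ± 0.093) and S100a9 (0.025 ± 0.095) did not pass. S100a5 had only 2 probes, at -0.35 and 0.22, and was not tested.

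In RNA, the ratios are log2(TKO/J1). The dye labels allow either order. J1 in Cy5 on arrays 1 and 3 and in Cy3 on array 2 was taken as the likely order, from the design and the methyltransferase genes. The 3 arrays were deposited as 1 sample; the study calls them replicates, but nothing ties each to a culture of its own, so every RNA p-value below measures the spread between arrays, which may be technical. In that order the methyltransferase genes were lower in TKO: Dnmt3b by -2.50 ± 0.19 (SD, n = 3) and, on 2 arrays each, Dnmt3a by -2.36 ± 0.18 and Dnmt1 by -1.07 ± 0.25; Dnmt3a was above background on only 2 arrays in TKO. As these genes helped to choose the order, their direction is no separate check of it. Their probes were also not placed against the deleted exons. Every RNA direction below rests on this order. Actb, a cytoskeletal actin, was at -0.19 ± 0.23. Between 38.6% and 66.8% of expression probes were well above background, and 8386 spots were uneven on array 3. These included the spots of S100a4, S100a10, S100a11 and S100a6, so their means are of arrays 1 and 2, each with 1 spot per array. Over all genes the median ratio was -0.0084 and the median SD over 3 arrays was 0.13.

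S100g, the epithelial calcium carrier, had the highest ratio of the set. Its log2(TKO/J1) was 2.10 on array 1, 1.79 on array 2 and 2.93 on array 3, a mean of 2.27 ± 0.59 (SD, n = 3). On a log2 level scale normalised over arrays, TKO was at 7.79, 7.95 and 8.82 on the 3 arrays, and J1 at 5.69, 6.16 and 5.89. The TKO levels lay above every J1 level. S100g was chosen by this ratio, and the share of all genes separated in this way was not counted. The probe was well above background on all 3 arrays in TKO and on none in J1, so the size of the difference was not measured. Against a J1 limit the TKO mean was 4.57-fold higher, or 2.19 in log2. This sets the TKO mean of 8.18 against a mean limit of 5.99. The limit is, per array, the higher of the J1 signal and the lowest signal well above background. It is no strict floor: array 2 alone gave 1.79. There the J1 signal of 6.16 was above the lowest such signal, 5.95, yet was not itself well above background. With the Agilent processed signals the mean log2 ratio was 4.91, and the authors' deposited table gives 4.84 on the log2 scale; these too rest on a J1 signal that was not well above background, so neither is a measured size.

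**Figure D3:**
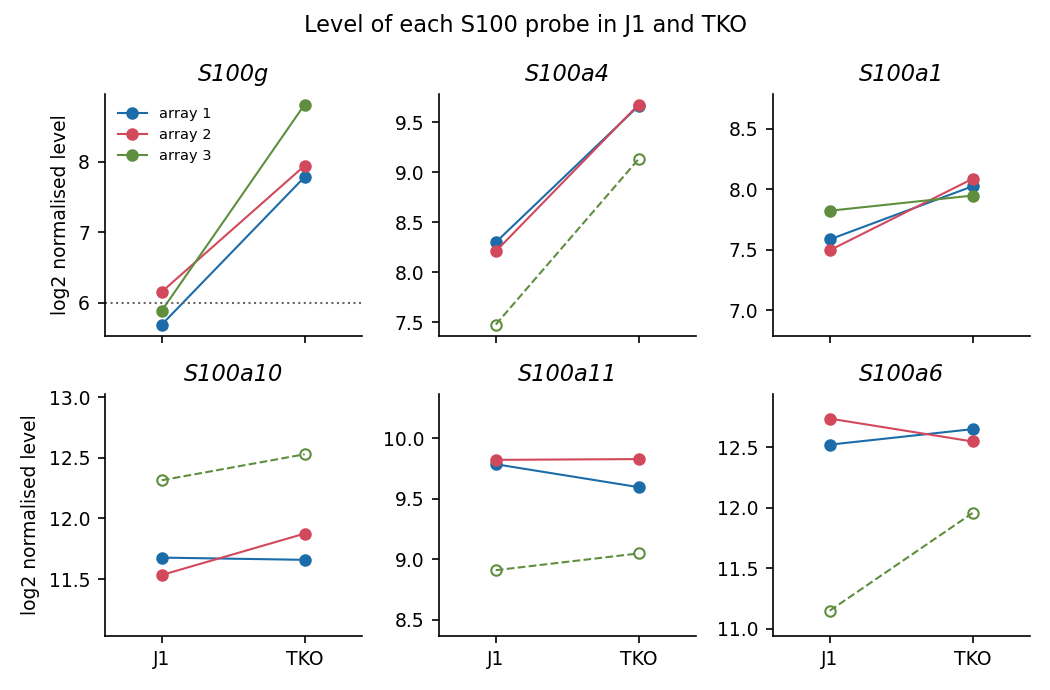
Normalised log2 level of each S100 probe in J1 and TKO, with 1 line per expression array; open points and dashed lines are spots marked uneven on array 3, and the dotted line in the S100g panel is the mean J1 limit of 5.99. The J1 points of S100g lie at or near that limit while TKO reaches 7.79 to 8.82; the axes differ between panels, so levels are not compared between genes.

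S100a4, also called metastasin, binds non-muscle myosin and is known from fibroblasts and migrating cells. Its log2(TKO/J1) was 1.36 on array 1 and 1.47 on array 2, a mean of 1.42 ± 0.07 (SD, n = 2), or 2.67-fold. J1 was at levels of 8.30 and 8.21 and TKO at 9.66 and 9.68. The uneven spot of array 3 gave 1.65 and would make the mean 1.5. Array values with and without that spot lay on the same side. A second probe that the files describe as S100a4 but file under another name, AK021069, was at -0.095, -0.0024 and 0.12, a mean of 0.0072 ± 0.11 (n = 3). It was well above background on 2 arrays in J1 and 1 in TKO, and it was outside the choice of probes.

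S100a1 was the only other gene of the 6 above 0 on each of its arrays. Its values were 0.44, 0.59 and 0.13, with a mean of 0.38 ± 0.24 (SD, n = 3), or 1.31-fold. J1 levels were 7.58, 7.49 and 7.82 and TKO levels 8.02, 8.08 and 7.95, which did not overlap. S100a1 too was chosen by this ratio, and the share of all genes separated in this way was not counted. With median centring in place of loess the mean was 0.23; that setting moved the median of all genes to -0.10.

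S100a10, S100a11 and S100a6 lay close to 0. S100a10 gave -0.018 and 0.34, a mean of 0.16 ± 0.25 (SD, n = 2). S100a11 gave -0.19 and 0.0065, a mean of -0.09 ± 0.14, and S100a6 gave 0.13 and -0.19, a mean of -0.03 ± 0.22. Each mean was smaller than its SD. All 3 were well above background in both lines on every array. With the uneven spot of array 3 (0.81) kept, the S100a6 mean became 0.25, and the authors' deposited table gives 0.26 for it. The authors' deposited table gives 0.0081 for S100a11.

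**Figure D4:**
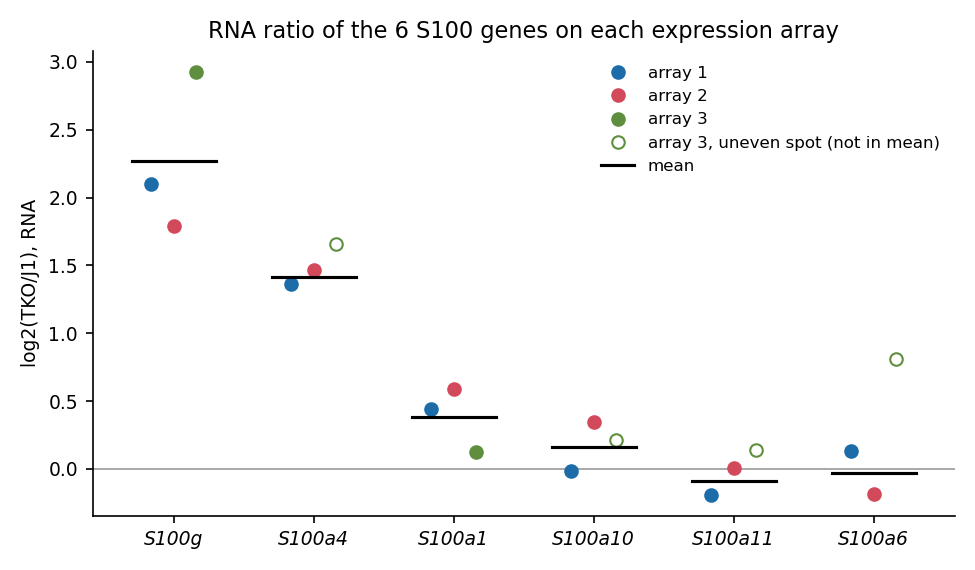
Log2(TKO/J1) of RNA for the 6 S100 genes (vertical axis) on each expression array; filled points enter the mean (black bar), and open points are uneven spots of array 3 that do not. S100g and S100a4 lie at 1.36 or above on every array, S100a1 between 0.13 and 0.59, and S100a10, S100a11 and S100a6 between -0.19 and 0.34 but for the uneven S100a6 spot at 0.81.

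The methylation values and RNA of the set can be set side by side for 4 genes. The promoter and RNA means were 0.22 and 0.16 for S100a10 and 0.13 and -0.03 for S100a6. They were 0.0088 and -0.09 for S100a11 and -0.015 and 0.38 for S100a1. The S100a1 promoter value comes only from probes downstream of its start. Of the genes with the highest RNA ratios, S100g was seen by MeDIP only through probes filed under its neighbour and S100a4 not at all.

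Over all genes 32.7% were called at a limma adjusted p under 0.05, 16.9% as higher in TKO and 15.8% as lower; with median centring in place of loess the higher share of calls went from 51.7% to 33.8%. Of the other S100 genes 9 had an expression probe, 2 were tested and neither was called. S100a13 was at 0.14 ± 0.05 (n = 2, limma adjusted p = 0.335) and S100a16 at 0.22 ± 0.19 (n = 3, limma adjusted p = 0.106). S100a14, an epithelial member, was above background in each line on only 2 arrays and was not tested; it read 0.74 and 0.72 on arrays 1 and 2, and its uneven spot on array 3 read 0.32. S100a3 and S100b were above background on 2 and 1 arrays in each line, and were at -0.07 and 0.017. S100a5, S100a7a, S100a8 and S100a9 were above background on no array in either line. The S100-fused genes Hrnr, Tchh and Rptn, which build the skin barrier and hair, were not above background either.

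Among proteins known to bind S100 proteins, 5 of 16 tested genes rose in TKO and 1 fell. Over all genes 16.9% were higher and 15.8% lower, and the list was not tested as a set. The list median was 0.05, against -0.0084 for all genes. The highest was Anxa1, the annexin that pairs with S100a11, at 0.87, 0.90 and 1.02 on the 3 arrays (mean 0.93 ± 0.08, SE 0.08, adjusted p = 5.4e-05). Myh9, the non-muscle myosin heavy chain bound by S100a4, was at 0.97, 1.28 and 0.38 (0.88 ± 0.46, adjusted p = 0.00183). Plaur, the receptor of urokinase, was at 0.77 ± 0.07 on 2 arrays (adjusted p = 0.000855). Plat, a plasminogen activator that S100a10 is known to bind, was at 0.57 ± 0.25 (adjusted p = 0.00694) and Dlc1 at 0.44 ± 0.10 (adjusted p = 0.0036). Sugt1, a co-chaperone bound by S100a6, fell to -0.65 ± 0.31 on 2 arrays (adjusted p = 0.00542). Anxa2, the annexin of the S100a10 complex, was at 0.051 ± 0.0048 on 2 arrays (adjusted p = 0.743). Cacybp, which binds S100a6, was at -0.05 ± 0.04 (adjusted p = 0.643). With median centring 2 of the 16 were higher and none was lower; 3 were higher with the dye-effect term and without array 1 or 2, settings that give no value for Plat, Plaur and Sugt1, which were measured on 2 arrays. Anxa1, Myh9 and Dlc1 passed with the dye-effect term and without array 1 or 2. With median centring only Anxa1 and Plaur kept the call. There Myh9 was at 0.51 (limma adjusted p = 0.137), Dlc1 at 0.30 (0.477), Plat at 0.59 (0.169) and Sugt1 at -0.73 (0.0602).

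In the wider EF-hand family, 8 of 34 tested genes rose in TKO and 2 fell, with a median of 0.18. These shares stand against 16.9% higher and 15.8% lower over all genes. Tnnc1, the calcium sensor of slow and cardiac muscle, was at 0.84 ± 0.22 (SD, n = 3, limma adjusted p = 0.000264); it was above background on only 2 arrays in J1 and entered the test through TKO, where it is high. The other 7 were above background on every array in both lines. Among them was Efhd2, at 0.64 ± 0.21 on 2 arrays (adjusted p = 0.0035). Sparc, a secreted matrix protein, was also among them, at 0.58 ± 0.015 on 2 arrays (adjusted p = 0.00318). Calml4, a calmodulin-like protein, fell on all 3 arrays, by -2.67, -2.17 and -2.20 (mean -2.35 ± 0.28, adjusted p = 2.1e-06). Pls3, an actin-bundling plastin, fell by -0.59 ± 0.013 (adjusted p = 0.000551). Calbindins outside the S100 family, Calb1 and Calb2, were not tested. With median centring 1 of the 34 was higher and 2 were lower, and leaving out array 1 or 2 left 3 higher. The 1 higher with median centring was Tnnc1 (0.79, limma adjusted p = 0.00609), which had entered the test through TKO. The other 7 lost the call there, among them Efhd2 (0.66, adjusted p = 0.104) and Sparc (0.52, adjusted p = 0.243).

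Genes of calcium transport and its hormones, the setting in which S100g is best known, were mostly not tested: 5 of 18 with a probe were. Pth1r, the parathyroid hormone receptor, rose (0.68 ± 0.27, n = 3, limma adjusted p = 0.00127), and Atp2b2, a plasma membrane calcium pump, was at -0.39 ± 0.24 (adjusted p = 0.0158), though without array 1 its adjusted p was 0.0729 and without array 2 it was 0.117. Atp2b2 was above background on only 2 arrays in TKO and entered the test through J1, where it is high. With median centring Pth1r was at 0.59 (adjusted p = 0.0607) and Atp2b2 at -0.40 (adjusted p = 0.288), so neither passed at much the same size. Without the filter on dim probes Atp2b2 kept its value, with an adjusted p of 0.0613. Vdr, the vitamin D receptor, was at -0.14 ± 0.05 (adjusted p = 0.205). The channels Trpv5 and Trpv6 and the hormone receptors Esr1 and Pgr were above background on no array in either line. On the MeDIP arrays 1 of the list's 16 promoters was called, Slc8a1, a sodium-calcium exchanger, at -0.52 on the labelled TKO side. None of the 19 promoters of S100 partners or the 46 of other EF-hand genes was called. Over all promoters 2.67% were called, so no result about the lists is read from these counts.

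**Figure D5:**
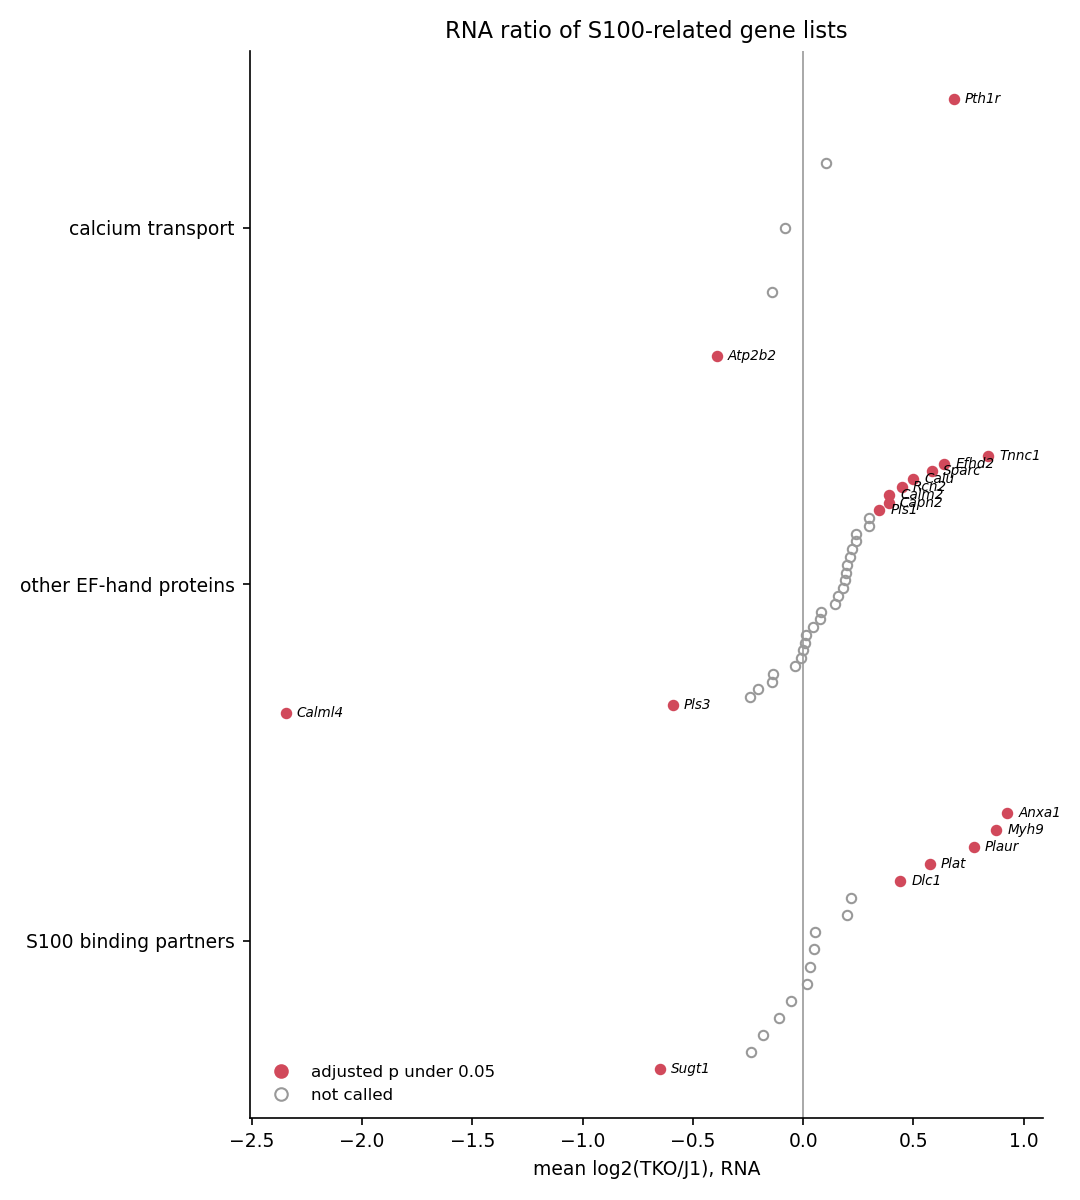
Mean log2(TKO/J1) of RNA (horizontal axis) for tested genes of the S100 partner, EF-hand and calcium transport lists, ordered within each list; filled red points with names passed a limma adjusted p under 0.05. Anxa1 at 0.93 is the highest of the partners and Calml4 at -2.35 the lowest of the EF-hand genes.

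Markers of other cell types were read as well. Over all genes 16.9% were called higher in TKO and 15.8% lower. Of 13 primitive endoderm markers 8 were tested and were higher in TKO, with Afp at 3.86 ± 0.25 on 2 arrays and Dab2 at 2.39 ± 0.27. Of the 8, Afp, Apoa1 and Ttr were above background on all arrays in TKO only and so could enter the test only by being high there; the other 5 were above background on every array in J1 as well. Their summed level, on a linear scale over 13 probes, ran from 2039 to 2438 in J1 and from 6457 to 6594 in TKO. Of 12 trophoblast markers 5 were tested and 4 rose, with Gata3 at 2.01 ± 0.27 on 2 arrays and Prl3d1 at 1.81 ± 0.10. The sums were 2416 to 4075 in J1 and 4669 to 7319 in TKO. Of 12 fibroblast markers 4 were tested and 3 rose, with Lox at 1.37 ± 0.17 on 2 arrays and Col1a2 at 1.00 ± 0.08. The sums were 2045 to 2218 in J1 and 2474 to 3229 in TKO. Lum and Twist2 were above background on no array in either line. Of 8 tested ES cell markers 3 fell, with Sox2 at -0.80 ± 0.10 and Pou5f1 at -0.72 ± 0.14 on 2 arrays. The other 5 were not called. Of these, Dppa5a (0.53 ± 0.71) and, on 2 arrays, Zfp42 (0.15 ± 0.34) had means above 0. Tdgf1, Sall4 and Lin28a had means below 0. The ES cell sums were 64647 to 87554 in J1 and 73534 to 113496 in TKO. They overlapped, with both ends higher in TKO. In J1, Cdx2, Elf5, Tpbpa, Apoa1, Sox7 and Ttr were above background on no array. The part of these cells in the S100 ratios was not tested, and in bulk RNA fewer cells of a type and less RNA per cell cannot be told apart.

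Of 24 other genes within 3 places of the 6 in RefSeq order, 8 were tested. None was higher in TKO and 2 were lower, where 16.9% of all genes were higher and 15.8% lower. With so few genes, no local result is read from these counts. The 2 were within 3 places of S100g: Txlng at -0.42 (limma adjusted p = 0.0151) and Ctps2, whose gene spans the S100g promoter probes, at -0.29 (limma adjusted p = 0.0287). S100a6, which lies close to S100a4 with S100a5 between them, was at -0.03, against 1.42 for S100a4.

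The genes whose array values came closest to those of each of the 6 were found by Euclidean distance over the arrays measured. For S100g, whose ratios rest on a J1 signal not well above background, the rule gave Xlr and Xist among 6493 genes, and no closeness is read from it. For S100a1 they were Bnip5 (distance 0.061) and Aggf1 (0.072). For genes measured on 2 arrays there were 3795 candidates, and the nearest were Snx25 and the keratin Krt7 for S100a4, Ubxn7 and Tle1 for S100a10, Slc14a2 and Pcnp for S100a11, and Trap1 and Map2k7 for S100a6.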

How the data were processed

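The authors' deposited scanner files come from Agilent Feature Extraction (8.5 per the submitters' processing notes; 8.5.1.1, or A.7.5.1 for 2 expression arrays, per the file headers). Their intensity values are spot signals per dye, and the processed ones were background-subtracted and dye-normalised by that software, per the file headers. The authors' deposited RNA table holds log10 ratios, an average of the 3 arrays that allows for the swap per the series' design text, printed here as log2. Across probes it correlated at r = 0.968 with the mean scanner log ratio of the 3 arrays (25.8% equal within 0.001) and at r = 0.850 with the log2 ratios fitted here. Its median is -0.016 in its own log10 units, and no source used here states its centring. Probes were named by accession (22072 of 41174), then by file name (10506), with RefSeq symbols and gene order of GRCm38.p6. No build for the promoter probes was stated, so only distances are printed.

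RNA signals had normexp (offset 50) and loess, uneven spots left out, the brightest probe of a gene kept, and had to be well above background in either line on all 3 arrays. MeDIP ratios used processed signals, centred on each array's median, with no loess. A promoter was split at gaps over 2000 bp. For both, limma 3.58.1 in R 4.3.3 tested the mean against 0, with Benjamini-Hochberg adjustment over all genes, or over the promoters of both designs. The number of arrays limits the precision, and p-values measure the spread between arrays. Some slide codes repeat between arrays, which were taken as separate hybridisations.

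The genes and lists were chosen with earlier results of these data known. Named genes were the 6, the other S100 genes, up to 3 called genes per direction of each list with the largest change and 1 sign on every array, 2 nearest genes each, called neighbours, 5 check genes (Gapdh was not analysed here) and 2 per marker list. Anxa2, Cacybp, Vdr, Calb1, Calb2, Trpv5, Trpv6, Esr1, Pgr, Asz1, AK021069, Plat, Dlc1, Calm2, Slc8a1 and the markers not above background were added after their values were seen, as were the settings that keep uneven spots, average arrays of 1 slide code, or add a dye term for the 6 genes. The fits were checked on simulated data.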

Additional observations from a re-analysis of the deposited data

Results flagged for a closer look

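One S100 value stood apart from the other arrays. At the S100a11 probe at -385 bp, array 1 was at -0.26, and the gap to its nearest neighbour was 0.671 of the whole range of the 7 arrays, above Dixon's critical value for 7 values. The mean of that probe over 7 arrays was -0.066. Of 33 sets of 7 arrays examined this was the only such value. Chance alone gives such a value in a small share of sets, so 1 among 33 is not set apart from chance.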

How the results depend on the processing

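Several values moved with the processing; where no value shows why, the cause was not tested. With processed signals the RNA log2 ratio was 4.91 for S100g and 1.58 for S100a4; in the authors' deposited table it was 4.84, 1.75 and, for S100a6, 0.26. Keeping uneven spots gave 1.5 for S100a4 and 0.25 for S100a6. Leaving out each array in turn gave S100g 1.94 to 2.51 and S100a1 0.28 to 0.51. RNA calls over all genes, 2032 higher and 1900 lower, became 375 and 735 with median centring and 1086 and 922 with a dye-effect term, and ran from 958 to 1800 and from 850 to 1648 with an array left out (958 without array 2 and 850 without array 1). Of 21 called list genes, 12 lost the call with median centring (6 of them at least as large as before), 8 kept it and Calm2 turned from 0.39 to -0.0062. Among MeDIP promoters, S100a10 kept its side and an adjusted p under 0.05 in all 12 alternatives. S100a6 was at 0.019 with normexp and 0.099 with mode centring. S100a11 turned to -0.0033 with normexp and -0.020 with mode centring, and ran from -0.0021 (without replicate 4) to 0.014 with an array left out; S100a1 ran from -0.048 to 0.0081 (without replicate 6). The region with the S100g probes was at 0.046 with normexp, 0.11 with probes above background in both channels and -0.047 with the median over probes. Calls on the labelled J1 side, 10, became 1 with normexp, 5 with mode centring and 6 with arrays of one slide code averaged (7 to 14 with an array left out). Calls on the labelled TKO side, 377, became 15 with normexp and 164 where both channels were above background (319 to 450). At any size, normexp gave 2345 and 2060 and mode centring 2392 on the labelled J1 side. Genes measured on 2 arrays have no value without array 1 or 2 or with the dye term. A slide block could not be fitted for RNA or the first promoter design and was not run, and the deposited RNA table gives no test. No paired analysis was possible because groups that share replicate numbers hold different promoters and are not compared, and the RNA arrays are 1 sample. Dim signal limits S100g in J1 RNA and at its upstream probes.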
